A study of Rattus norvegicus with 48 samples.

Results

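The posterior eye was compared with the retina of the same animal, gene by gene. The comparison used 48 of the 48 libraries of the series, 24 from the posterior eye and 24 from the retina, and paired them by the animal number that each library's title gives. Of 32883 gene rows in the table of each tissue, 32858 were matched by symbol, 26516 of these had at least 1 count in some library, and 17153 passed a filter on low counts and were tested. The animals were 24 female Long-Evans rats, a pigmented strain, in 4 groups of 6. Young animals were 3 to 4 months old and older ones 9 to 10 months old, an age the submitters call middle-aged or aged (aged here). In each age, 6 animals had a sham operation and 6 an ovariectomy (OVX), which removes the ovaries. No group carried a transgene or received an agent, according to the labels, and all libraries were made alike, from 10 ng of total RNA with the low-input SMART-Seq v4 kit.

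The retina is the sheet of neurons and glia that turns light into nerve signals. Behind it lie the retinal pigment epithelium (RPE), which feeds photoreceptors and renews their visual pigment, the choroid, a vascular layer with melanocytes and immune cells, and the sclera, a collagen-rich shell made by fibroblasts. Extraocular muscles, orbital fat and nerves attach to the outside of that shell, and the cornea, lens and eyelid glands belong to the front of the eye.

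Almost every gene differed between the tissues. With the animal as a block, 15945 of 17153 genes were called at an adjusted p under 0.05 in edgeR's quasi-likelihood test, which is 93.0% of them. Of all genes tested, 47.6% (8166) were higher in the posterior eye and 45.4% (7779) higher in the retina, and the median log2 difference, posterior eye minus retina, was 0.04. Because a call alone says little at these shares, differences of at least 4-fold are used below. The shares of 47.6% and 45.4% are the background for each count of list members called higher in 1 tissue. They were called for 3285 genes higher in the posterior eye (19.2%) and for 1752 higher in the retina (10.2%), and 3022 and 1640 of them had the same sign in 24 of 24 animals. The levels of the tissues did not overlap in any animal for 4711 genes higher in the posterior eye (27.5%) and 4222 higher in the retina (24.6%). The distribution was lopsided at the far end, where 1058 genes lay 5 or more log2 units higher in the posterior eye and 20 lay that far higher in the retina. Genes at least 4-fold higher in the posterior eye held 23.0 to 37.2% of the counts of a posterior eye library and 1.72 to 2.31% of a retina library. Genes at least 4-fold higher in the retina held 29.5 to 33.9% of the counts of a retina library and 1.03 to 11.4% of a posterior eye library.

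Depth ran from 11470945 to 22971367 counts per posterior eye library and from 12916146 to 30737547 per retina library, with medians of 18266453 and 17937769.5. Levels are given as CPM, read counts scaled for library size by edgeR's TMM method, and log2 differences with their standard error (SE). The biological coefficient of variation common to all genes was 33.5% in the posterior eye against 12.2% in the retina. Animals are numbered 1 to 6 in young sham, 7 to 12 in young OVX, 13 to 18 in aged sham and 19 to 24 in aged OVX. Some libraries stood apart. The retina library of animal 2 held skeletal muscle genes at 517 CPM in sum against 34.4 to 119 in the other retina libraries. The posterior eye libraries of animals 6, 16 and 2 held sebaceous and meibomian gland genes at 2520, 2116 and 1507 CPM in sum against a median of 55.5, and that of animal 12 held central myelin genes at 519.8 CPM against a median of 66.4. In bulk tissue, fewer cells of a type and less RNA per cell cannot be told apart.

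The label of the posterior eye was checked against marker genes. RPE, melanocyte, fibroblast and vessel genes were present. So were genes of tissue that does not belong to the back of the eye. Krt12, the keratin of the corneal epithelium, ran from 259.3 to 32730 CPM in the posterior eye with a median of 12440, and from 0.72 to 66.9 in the retina. Kera, which encodes keratocan, a proteoglycan known from the corneal stroma, ran from 121.5 to 437.1 CPM in the posterior eye against 0 to 0.31 in the retina. Both corneal genes were higher in every posterior eye library than in any retina library. Which pieces of tissue entered the sample is not given in the sources used here.

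Most genes of the RPE were higher in the posterior eye. Of 16 markers, 14 were called higher in the posterior eye (background 47.6%), 11 of them at least 4-fold (background 19.2%), 1 was lower and 1 was not called. Their median log2 difference was 3.99. In the visual cycle, the enzyme chain that rebuilds the light-sensitive retinoid, Lrat, which esterifies vitamin A, differed by 4.02 ± 0.17 (SE) on the log2 scale, and Rdh5, which oxidises the 11-cis alcohol, by 4.29 ± 0.20. Rpe65, the isomerase between these steps, ran from 123.3 through a median of 285.4 up to 564.6 CPM in the posterior eye against 6.57 through 19.2 to 56.4 in the retina. All 24 posterior eye libraries lay above all retina libraries, and the log2 difference was 4.02 ± 0.22.

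Ttr, the carrier of thyroxine and of the retinol-binding protein, ran from 835.6 through 1992 to 3612 CPM in the posterior eye against 32.2 through 86.0 to 316.5 in the retina, a log2 difference of 4.39 ± 0.25. Rgr, a retinal G-protein-coupled opsin, differed by 4.24 ± 0.24, and Slc16a8, the basolateral lactate transporter of the RPE, by 3.96 ± 0.21. Serpinf1, which encodes pigment epithelium-derived factor, showed the widest gap of the list, 470 ± 91.0 CPM (SD, n = 24) against 6.25 ± 1.95. Its groups did not come near each other. The exception in direction was Rlbp1, the retinaldehyde-binding protein that is known from both RPE and Müller glia, at 108.5 through 297.2 to 492.9 CPM in the posterior eye against 370.3 through 429.9 to 474.8 in the retina (log2 -0.66 ± 0.10, adjusted p = 7.34e-07 in edgeR). It was higher in the retina in all animals but 1, though the ranges overlapped. Best1, a chloride channel, and Mertk, the receptor for shed outer segments, differed by only 0.20 ± 0.08 and 0.48 ± 0.04. The peropsin gene Rrh was at 85.3 ± 23.1 CPM in the posterior eye against 71.3 ± 6.16 in the retina and missed the threshold (adjusted p = 0.0507).

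RPE transcripts were not absent from the retina libraries. The sum of the 16 markers ran from 713.6 (animal 20) to 1376 (animal 16) CPM in the retina and from 2886 (animal 16) to 8819 (animal 13) in the posterior eye. Animal 16 was thus the highest of the retina libraries and the lowest of the posterior eye libraries. Its mean paired log2 difference over the list was 1.39, against 2.14 to 3.71 in the other 23 animals.

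Pigment cell genes were higher in the posterior eye without exception among those measured. All 11 tested genes of melanocytes and melanin were called higher there, 9 at least 4-fold, and in all 11 the tissues' levels did not overlap (background 27.5%). The median log2 difference was 4.79. Pmel, which forms the fibrils on which melanin is laid down, ran from 624.6 through 1422 to 2569 CPM in the posterior eye against 12.9 through 19.6 to 48.98 in the retina. Tyrp1, a melanosomal enzyme related to tyrosinase, ran from 564.1 through 1412 to 2145 and from 14.1 through 33.5 to 58.6. Tyr itself, tyrosinase, which starts melanin synthesis, showed the largest log2 difference of the list, 6.37 ± 0.20. Mlana, a melanosome protein, differed by 6.12 ± 0.16, and Gpr143, the receptor altered in ocular albinism, by 4.79 ± 0.14. The differences were smaller for Mitf, the master regulator of pigment cells, at 2.28 ± 0.06, for Kit, a growth factor receptor of melanocytes that other cells also carry, at 1.69 ± 0.07, and for the melanosomal exchanger Slc24a5 at 1.87 ± 0.09. Dct and Mc1r were not analysed here.

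Because these genes moved together, their promoters were read for the motif CATGTG, the E-box form known to bind MITF, on either strand in the 250 bases before the RefSeq start of each gene (RefSeq, build GRCr8, which is not the build of the counts). The motif stood in 11.7% of all 27457 promoters of that length and in 7.68% of the 11665 promoters of genes tested. It stood in 10.5% of the promoters of genes at least 4-fold higher in the posterior eye, in 8.17% of those at least 4-fold higher in the retina, and in 4 of 9 melanocyte genes with a promoter in the table, Gpr143, Mlana, Tyr and Tyrp1. The promoters of the genes for the 2 enzymes of the pathway are shown 5′ to 3′ with CATGTG in capitals. Tyr lies on the minus strand at chr1:150622858-150623107, with the motif starting 120 and 27 bases before the start, and Tyrp1 on the plus strand at chr5:100326875-100327124, with the motif starting 67 bases before it.
Tyr: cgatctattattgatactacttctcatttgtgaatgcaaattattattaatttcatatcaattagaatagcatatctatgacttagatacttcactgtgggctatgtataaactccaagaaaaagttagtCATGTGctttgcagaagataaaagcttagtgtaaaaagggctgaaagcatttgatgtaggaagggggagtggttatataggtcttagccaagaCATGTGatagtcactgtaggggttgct
Tyrp1: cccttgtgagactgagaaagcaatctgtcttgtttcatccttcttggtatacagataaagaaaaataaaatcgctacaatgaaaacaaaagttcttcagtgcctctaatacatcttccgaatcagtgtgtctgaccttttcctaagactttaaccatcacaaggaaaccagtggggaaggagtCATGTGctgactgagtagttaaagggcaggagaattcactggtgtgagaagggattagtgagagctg

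Rod photoreceptor genes were lower in the posterior eye by nearly the same amount, gene after gene. All 17 tested were called higher in the retina (background 45.4%), all at least 4-fold (background 10.2%), with log2 differences between -4.39 and -3.79 and a median of -4.26. Gnat1, the alpha subunit of rod transducin, ran from 11940 through 14350 to 16180 CPM in the retina and from 14.1 through 989.9 to 5256 in the posterior eye, a log2 difference of -4.31 ± 0.56. The retina libraries lay close together and the posterior eye libraries spread widely, without overlap. The cyclic nucleotide channel gene Cnga1 and the transcription factors Nrl and Nr2e3, which set rod identity, differed by -4.14 ± 0.50, -4.37 ± 0.56 and -4.31 ± 0.52. Slc24a1, the exchanger that removes calcium from rods, differed least, by -3.79 ± 0.36.

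The core of the site known for the photoreceptor factor CRX, TAATCC, was searched in the same way. It stood in 6.33% of all promoters, in 4.92% of those of genes tested, in 6.26% of those at least 4-fold higher in the retina and in 5.05% of those at least 4-fold higher in the posterior eye. Of 11 rod genes with a promoter in the table, Cngb1, Gngt1 and Pde6a held it. The promoter of Cngb1, the second subunit of the rod channel, is shown with the motif in capitals at 62 and 29 bases before the start (chr19:9732396-9732645, plus strand), and that of Gngt1, the rod transducin gamma subunit, with the motif on the other strand (written GGATTA) at 220 bases before it (chr4:32960695-32960944, plus strand). CRX's own gene, Crx, ran from 416.8 to 557.7 CPM in the retina and from 0.38 to 203.8 in the posterior eye.
Cngb1: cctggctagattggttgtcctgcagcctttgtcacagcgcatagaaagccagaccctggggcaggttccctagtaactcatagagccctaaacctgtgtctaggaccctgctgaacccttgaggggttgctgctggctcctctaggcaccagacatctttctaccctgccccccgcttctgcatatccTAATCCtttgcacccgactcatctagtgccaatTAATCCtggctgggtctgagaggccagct
Gngt1: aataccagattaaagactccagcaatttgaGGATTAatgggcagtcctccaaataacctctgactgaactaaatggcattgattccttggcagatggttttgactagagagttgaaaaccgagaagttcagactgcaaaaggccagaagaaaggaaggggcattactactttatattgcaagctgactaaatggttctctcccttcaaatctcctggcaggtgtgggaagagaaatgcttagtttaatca

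Cone genes followed the rods with smaller and less even differences. Of 12, 11 were higher in the retina (45.4% of all genes) and 1 higher in the posterior eye (47.6%), with a median of -3.51. Arr3, cone arrestin, was at 225.3 to 331.7 CPM in the retina and 0.86 to 102.1 in the posterior eye (log2 -4.00 ± 0.46). Gnb3, a transducin beta subunit, was at 372.0 to 462.1 and 4.69 to 172.0 (-3.81 ± 0.39). Both were lower in every posterior eye library than in any retina library. The channel subunit gene Cngb3 differed by -0.47 ± 0.11 and Thrb, the thyroid hormone receptor of cones, which other tissues also use, by -1.32 ± 0.06. The gene that went the other way was Rxrg, a retinoid X receptor, at 16.1 through 29.8 to 44.3 CPM in the posterior eye against 6.43 through 8.71 to 11.0 in the retina (log2 1.75 ± 0.10).

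Interneuron and ganglion cell genes were also lower in the posterior eye. All 12 bipolar cell genes were called at least 4-fold higher in the retina, with a median of -3.84, among them Grm6, the glutamate receptor of ON bipolar cells (95.7 to 157.4 CPM in the retina, 0 to 39.3 in the posterior eye, log2 -4.26 ± 0.49). Of 15 amacrine and horizontal cell genes, 14 were higher in the retina, with a median of -3.45. Gad1, which makes the transmitter GABA, was at 284.6 to 347.3 CPM there and 2.43 to 119.5 in the posterior eye. The exception was Tfap2a, a transcription factor also known from surface ectoderm and neural crest, at 3.19 to 5.56 CPM in the retina and 2.54 to 8.203 in the posterior eye (log2 0.38 ± 0.08). Of 14 ganglion cell genes, 13 were higher in the retina, with a median of -2.88. Nefl, a neurofilament of their axons, differed by -3.99 ± 0.47, Sncg by -1.62 ± 0.09 and Thy1, a surface protein that other cells carry too, by -2.04 ± 0.12. Rbpms, an RNA-binding protein used to mark ganglion cells in the retina, was higher in the posterior eye, at 26.2 through 38.3 to 49.3 CPM against 12.8 through 14.9 to 17.4, so in the posterior eye it did not follow the other 13.

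The machinery of the photoreceptor synapse and its surrounding matrix followed the neurons. All 12 ribbon synapse genes were at least 4-fold higher in the retina, with a median of -4.15. Slc17a7, the transporter that fills synaptic vesicles with glutamate, was at 2413 to 2953 CPM there and 1.99 to 1044 in the posterior eye. Cacna1f, the calcium channel that triggers release, differed by -4.39 ± 0.54. In the list of interphotoreceptor and neural matrix, 7 of 11 genes were higher in the retina (45.4% of all genes). The other 4 were higher in the posterior eye (47.6%), and the median was -2.48. Rbp3, which ferries retinoids between photoreceptors and RPE, differed by -4.52 ± 0.56 and Impg2, a proteoglycan of that space, by -4.35 ± 0.53. The 4 on the other side were matrix genes with wide use elsewhere: Acan, the cartilage proteoglycan aggrecan (log2 3.28 ± 0.26), Ptprz1 (1.53 ± 0.07), Hapln1 (1.08 ± 0.21) and Vcan (0.77 ± 0.11). All 11 tested retinal transcription factors were higher in the retina. Crx, Neurod1 and Neurod4, which act in photoreceptors and bipolar cells, differed by -4.32 ± 0.56, -4.21 ± 0.54 and -4.21 ± 0.51. Those that the ciliary body, iris or RPE also use differed less: Pax6, the eye field factor, was at 167.6 to 207.8 CPM in the retina and 88.2 to 147.8 in the posterior eye (log2 -0.65 ± 0.04), and Lhx2 differed by -1.05 ± 0.08.

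The posterior eye libraries differed widely in how much of this signal they held. The 17 rod genes summed to 143.3 CPM in the library of animal 9 and to 39000 in that of animal 10, a ratio of 272, and to between 89820 and 108800 in the retina libraries. Paired by animal, the mean rod difference ran from -9.07 (animal 9), -8.11 (animal 16) and -8.10 (animal 20) to -1.86 (animal 18), -1.67 (animal 1) and -1.32 (animal 10). Genes higher in the retina as a class varied in the posterior eye in the same way: their median SD of log2 CPM within groups was 1.01 in the posterior eye against 0.17 in the retina, against 0.30 and 0.16 over all genes.

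Each gene's level in the posterior eye was then set against the rod level of the library, with the group in the model, a fit that was added after the data had been seen. Over all genes tested, 22.9% rose with the rod level (3935) and 18.7% fell (3205) at an adjusted p under 0.05 in edgeR. Of the 1735 genes at least 4-fold higher in the retina that were not rod genes, 1605 (92.5%) rose and 2 fell. Of the 3285 at least 4-fold higher in the posterior eye, 1 rose and 1362 (41.5%) fell. All values are shares of the same library total, so a rise of one class lowers the others. The rod level moved with the posterior eye level of most retinal genes, and its part in each gene's difference was not tested. With the rod level as a covariate, 15970 genes were called, against 15945 without it. The covariate was centred over the posterior eye libraries, so the fitted tissue difference was still that at their mean rod level. These counts therefore cannot show how much retinal signal adds to the tissue difference.

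Paired differences of the retinal lists were not all equal to those of the rods. The ribbon synapse genes stayed close to the rods, with a paired difference above that of the rods by a median of 0.10. Cone genes lay above the rods in 24 of 24 animals, by a median of 0.47 and by 4.13 in animal 9, the animal with the least rod signal. Ganglion cell genes lay above them in 24 of 24 animals, by a median of 1.25, and Müller glia and astrocyte genes by a median of 3.65. Bipolar and amacrine genes lay above the rods in 21 and 19 of 24 animals. These values are a description, since the lists share the libraries. In the retina, cone genes had a median level of 5.52 log2 CPM and rod genes of 11. Cone genes thus had less room to fall before counts ran out, which limits the value in animal 9. Members higher in the posterior eye, such as Rxrg, Rbpms and Aldh1l1, also raise the means of their lists.

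**Figure D1:**
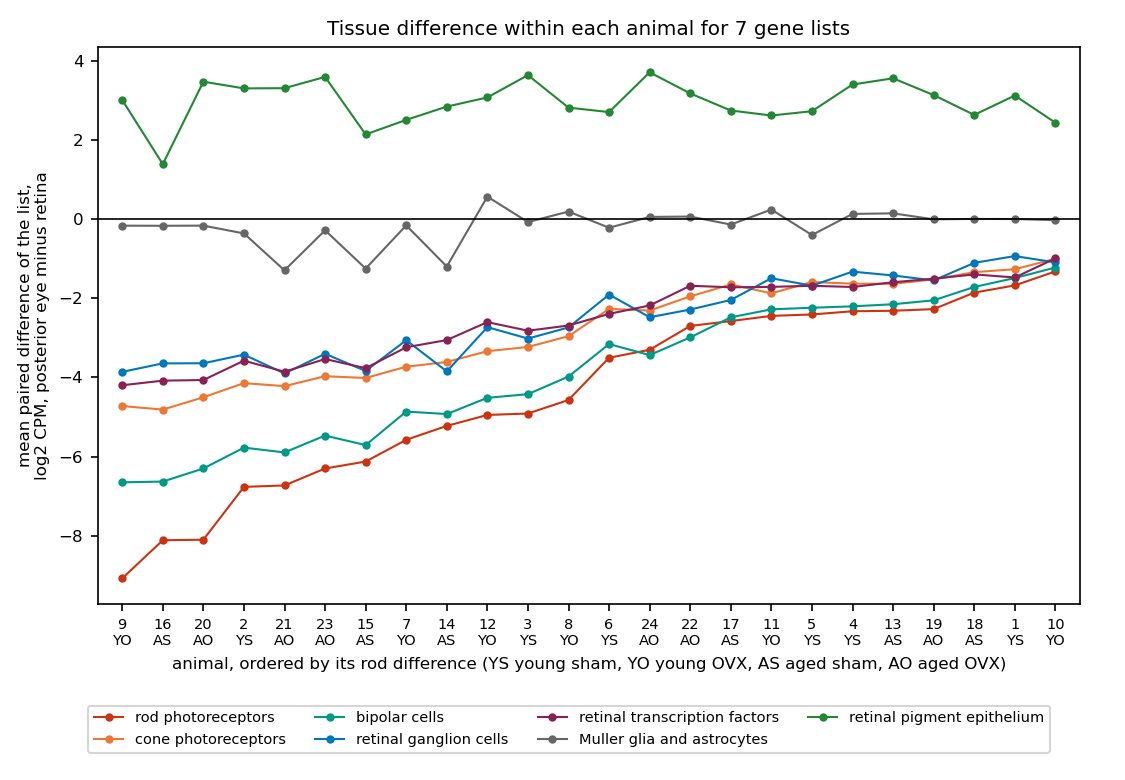
Mean paired difference (posterior eye minus retina, log2 CPM, y axis) of 7 gene lists in each of 24 animals, ordered along the x axis by the rod difference. The rod line climbs from -9.07 in animal 9 to -1.32 in animal 10, and the other neuronal lists climb less. The RPE line stays above 0 in every animal.

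Of 10 tested genes of Müller glia and astrocytes, 6 were higher in the retina (45.4% of all genes) and 4 higher in the posterior eye (47.6%), with a median of -0.37. Glul, glutamine synthetase, which clears transmitter in Müller glia, was at 2521 through 3052 to 3500 CPM in the retina and 1176 through 1513 to 2059 in the posterior eye (log2 -0.97 ± 0.05). Dkk3 was at 1754 to 2179 CPM in the retina and 162.0 to 839.2 in the posterior eye (-2.24 ± 0.11). The glutamate transporter Slc1a3 differed by -2.51 ± 0.19 and the potassium channel Kcnj10 by -2.36 ± 0.19. On the other side stood Aldh1l1, a folate enzyme used to mark astrocytes that liver and other tissues also make (4.00 ± 0.15), the intermediate filament Vim (0.81 ± 0.09) and the water channel Aqp4 (0.86 ± 0.09), both of which have other known sources, and Gfap. Gfap, the astrocyte filament, ran from 0.31 (animal 14) through 101.8 to 480.0 (animal 12) CPM in the posterior eye against 12.2 through 22.1 to 39.0 in the retina, and was higher in the posterior eye in 20 of 24 animals (log2 1.93 ± 0.48). The range of the retina lay inside that of the posterior eye.

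Central myelin genes mark oligodendrocytes, which in the eye are known from the optic nerve. All 6 were higher in the posterior eye (background 47.6%), and 2 had levels that did not overlap (background 27.5%). Mobp was at 39.2 ± 58.7 CPM (SD, n = 24) in the posterior eye against 0.15 ± 0.16 in the retina, and Mag ran from 0.13 (animal 14) to 69.8 (animal 12) and from 0.64 to 1.73. The sum of the list in the posterior eye ran from 9.22 (animal 15) to 519.8 CPM (animal 12), a ratio of 56.4. Animal 12 was the highest for both Gfap and Mag, and animal 14 the lowest for both. The share of optic nerve in the samples was not tested. Peripheral myelin and Schwann cell genes were all 9 higher in the posterior eye, with a median of 4.63. Sox10, the regulator of Schwann cells and melanocytes, differed by 5.47 ± 0.17. The sum of the list varied by a ratio of 1.77 between posterior eye libraries. Prx was at 8.77 to 19.4 CPM in the posterior eye against 2.90 to 26.8 in the retina, a call (adjusted p = 0.0479) that most other settings did not keep.

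Vessel genes were higher in the posterior eye, with 1 receptor gene as the exception. Of 12 endothelial genes, 11 were higher there (47.6% of all genes), 9 at least 4-fold (19.2%), with a median of 3.33. Plvap, which forms the diaphragms of fenestrated capillaries and is typical of the choriocapillaris, ran from 96.5 through 198.0 to 323.5 CPM in the posterior eye against 5.86 through 7.92 to 13.6 in the retina, without overlap (log2 4.47 ± 0.15). Emcn, endomucin, differed by 4.68 ± 0.11, Eng, endoglin, by 4.13 ± 0.09, and Vwf, von Willebrand factor, by 3.04 ± 0.10. Esam, a junction protein, and Flt1, a VEGF receptor, differed least among those higher in the posterior eye, by 1.06 ± 0.06 and 0.91 ± 0.07. Kdr, the main VEGF receptor of endothelium, was at 346.3 through 394.2 to 504.3 CPM in the retina and 54.0 through 103.1 to 186.6 in the posterior eye (log2 -1.95 ± 0.10). Retina was higher in 24 of 24 animals, against the other 11. Pecam1 was not analysed here.

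All 13 pericyte and smooth muscle genes were higher in the posterior eye, with a median of 2.81. The contractile genes differed most, Des, desmin, by 8.51 ± 0.22, Cnn1, calponin, by 6.82 ± 0.21 and Acta2, smooth muscle actin, by 4.71 ± 0.12, of which Des is also a gene of skeletal muscle. Pericyte genes differed less, with Pdgfrb, the growth factor receptor of pericytes, at 83.8 to 175.9 CPM against 18.8 to 26.3 (2.32 ± 0.07) and the channel gene Kcnj8 at 1.97 ± 0.10. Haemoglobin RNA was higher in the posterior eye as well: the 4 tested red blood cell genes summed to 152.8 to 1868 CPM there, highest in animal 23, and to 25.1 to 78.1 in the retina. The 2 alpha globin genes are near-identical copies, so their separate counts are uncertain.

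Vegfa, the main angiogenic ligand, ran from 165.9 through 190.7 to 289.0 CPM in the posterior eye against 180.3 through 200.6 to 235.9 in the retina, a log2 difference of -0.06 with bounds at 2 SE of -0.14 and 0.02 (adjusted p = 0.139 in edgeR with TMM scaling). It was called higher in the retina with upper quartile scaling (-0.15, adjusted p = 0.000947) and total count scaling (-0.19, adjusted p = 0.000269). The other ligands of the family were higher in the posterior eye: Vegfb by 1.27 ± 0.06, Pgf by 1.79 ± 0.12, Vegfc by 3.44 ± 0.10 and Vegfd by 4.44 ± 0.19, the last pair being ligands of the lymphatic receptor, whose gene Flt4 differed by 3.55 ± 0.12. Angpt1, which steadies vessels through the receptor Tek, differed by 4.37 ± 0.13, and its partner Angpt2 by 0.43 ± 0.06. Of the 13 genes of this list, 11 were higher in the posterior eye, 1 (Kdr) was lower and 1 (Vegfa) was not called.

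Immune genes were mostly higher in the posterior eye, while Cx3cr1 and P2ry12, used to mark microglia, were not called. Of 14 genes of microglia and macrophages, 12 were called at least 4-fold higher there, with a median of 3.48. Mrc1, Cd163 and Lyve1, which mark tissue macrophages, differed by 5.73 ± 0.19, 5.30 ± 0.32 and 5.02 ± 0.21. The complement genes C1qb and C1qc were at 44.2 to 120.0 and 48.1 to 140.5 CPM in the posterior eye and at 7.15 to 10.1 and 3.72 to 7.71 in the retina. The fractalkine receptor Cx3cr1 was at 4.71 ± 1.57 CPM in the posterior eye against 4.04 ± 0.63 in the retina (adjusted p = 0.21), and P2ry12, a purine receptor of resting microglia, at 2.44 ± 0.96 and 2.40 ± 0.68 (adjusted p = 0.902). Tmem119, another gene used to mark microglia, differed by 3.90 ± 0.13.

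Lymphocyte and mast cell genes were scarce. Cd3g, a T cell receptor subunit, ran from 0.85 through 2.43 to 3.88 CPM in the posterior eye and was at 0 in 12 of 24 retina libraries. Cpa3, a mast cell protease, had no count in any retina library, so that its level in the posterior eye was at least 252-fold higher than the floor of 3 counts over all 24 retina libraries. The tryptases Tpsab1 and Tpsb2, which share reads as close copies, were higher in the posterior eye by 6.06 ± 0.28 and 4.43 ± 0.24. Fcer1a, a subunit of the IgE receptor, went the other way, at 0 to 4.07 CPM in the posterior eye against 6.19 to 9.12 in the retina. The median of the 4 tested mast cell genes was 5.25.

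Complement genes were higher in the posterior eye beyond those of macrophages. Of 16, 15 were called higher (47.6% of all genes), 12 at least 4-fold (19.2%), with a median of 3.85. The classical proteases C1s and C1r differed by 5.33 ± 0.13 and 4.10 ± 0.11, and their inhibitor Serping1 was at 185.4 through 287.9 to 351.8 CPM against 14.9 through 22.8 to 38.8. Cfd, adipsin, the activating protease of the alternative pathway, differed by 7.48 ± 0.17. C3, the central component, differed by 0.61 ± 0.10. Cd46 missed the threshold at 1.21 ± 0.33 and 1.15 ± 0.25 CPM.

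All 14 tested fibroblast genes were higher in the posterior eye, 12 at least 4-fold, with a median of 8.52. Dcn, decorin, which binds collagen fibrils, ran from 2296 through 3399 to 4780 CPM in the posterior eye against 0.15 through 1.09 to 21.0 (animal 12) in the retina. Col1a1, a chain of type I collagen, ran from 797.8 through 1879 to 3261 and from 0.15 through 0.98 to 4.00, a log2 difference of 10.6 ± 0.29. Neither gene showed overlap. Gsn, gelsolin, differed by 6.89 ± 0.15, Pi16, a marker of perivascular fibroblasts, by 7.99 ± 0.16, and Pdgfra, which retinal astrocytes also carry, by 1.45 ± 0.07. Fbln1, fibulin-1, was the least different at 55.1 through 182.4 to 240.1 CPM against 47.6 through 134.8 to 262.4 (0.41 ± 0.13). Col1a2, the partner chain of Col1a1, was below the count filter and was not tested. It had 29 counts over all posterior eye libraries, against 779213 for Col1a1. The source of this gap was not tested, so the low count is not read as low expression.

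Not all fibrillar collagens belonged to the posterior eye. Of 14 fibrillar and associated collagens, 11 were at least 4-fold higher there and 3 were higher in the retina. None of the 14 overlapped between tissues (background 27.5% in the posterior eye's direction and 24.6% in the retina's). Those of the retina were Col5a3, at 332.9 through 401.4 to 487.6 CPM against 18.7 through 47.9 to 157.2 (log2 -3.02 ± 0.19), and the minor fibrillar chains Col11a1 (-1.56 ± 0.08) and Col11a2 (-1.70 ± 0.11). Those of the posterior eye included Col3a1 (9.23 ± 0.28), the microfibrillar chains Col6a1 (5.89 ± 0.10) and Col6a2 (4.25 ± 0.11), and Col12a1 (6.34 ± 0.13), which sits on fibril surfaces. Among 10 small leucine-rich proteoglycans, which set fibril diameter, 9 were at least 4-fold higher in the posterior eye, with a median of 8.43. Kera differed by 12.9 ± 0.24, Lum, lumican, by 11.3 ± 0.38, Chad by 10.5 ± 0.20 and Fmod, fibromodulin, by 4.00 ± 0.12. Optc, opticin, a proteoglycan of the vitreous, was higher in the retina in 23 of 24 animals, at 57.96 through 151.2 to 300.3 CPM against 1.27 through 71.2 to 142.0 (log2 -1.29 ± 0.22).

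The median difference of elastic fibre genes was smaller than that of the small leucine-rich proteoglycans. Of 19, 17 were higher in the posterior eye (47.6% of all genes) and 5 at least 4-fold (19.2%), with a median of 1.57. Mfap5, a microfibril glycoprotein, differed by 10.7 ± 0.18 and Fbln5, which assembles elastin, by 5.65 ± 0.13. Lox, the enzyme that crosslinks collagen and elastin, differed by 3.26 ± 0.11, and its relatives Loxl1 and Loxl2 by 1.78 ± 0.07 and 1.08 ± 0.10. Fbn1, fibrillin-1, was at 108.0 through 163.9 to 246.2 CPM against 58.8 through 104.6 to 229.0 (0.61 ± 0.10), with overlapping ranges. Fbn2, fibrillin-2, was the 1 member lower in the posterior eye, by -0.31 ± 0.09, and Ltbp2 was not called, at 68.8 ± 19.5 and 74.6 ± 26.9 CPM.

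Of 20 basement membrane genes, 13 were higher in the posterior eye (47.6% of all genes) and 5 higher in the retina (45.4%). The other 2 were not called, and the median was 0.49. The general type IV collagen chains were on the side of the retina: Col4a1 ran from 87.4 through 236.6 to 559.9 CPM in the retina and from 72.1 through 107.9 to 181.5 in the posterior eye (log2 -1.05 ± 0.12), and Col4a2 differed by -0.84 ± 0.10. Their ranges overlapped. The retina was also higher for Lama1, the laminin chain of the inner limiting membrane (-3.17 ± 0.14). The posterior eye was higher for Lama2, the laminin chain of muscle and nerve (5.16 ± 0.08), for Lamb2 at 236.5 to 511.5 CPM against 50.1 to 94.7, and for Lama5 (1.88 ± 0.09). Nid1 and Nid2, which link laminin to collagen IV, differed by 0.55 ± 0.12 and 2.16 ± 0.11. Col4a4 was at 88.3 ± 19.1 and 92.0 ± 29.8 CPM and Col4a6 at 8.63 ± 2.62 and 9.68 ± 3.60, and neither was called.

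Matricellular proteins and matrix proteases were mostly on the side of the posterior eye. Of 18 matricellular genes, 15 were higher there, 14 at least 4-fold, with a median of 3.01. Thbs4 differed by 10.0 ± 0.18, Thbs1 by 5.67 ± 0.10 and Fn1, fibronectin, by 4.76 ± 0.07. Tnr, a tenascin of central nervous tissue, was higher in the retina by the measure -3.62 ± 0.32, and Tnc by -0.68 ± 0.07. Sparcl1, hevin, was not called, at 218.0 to 556.3 CPM in the posterior eye against 263.4 to 313.4 in the retina. Without the animal block it was called higher in the posterior eye (0.13, adjusted p = 0.0427 in edgeR), and with total count scaling it turned to -0.023. Of 19 proteases and inhibitors, 13 were higher in the posterior eye (47.6% of all genes) and the other 6 higher in the retina (45.4%). Mmp2, gelatinase A, differed by 6.62 ± 0.13 and Mmp14, its activator on the cell surface, by 2.20 ± 0.07, and all 4 tissue inhibitors were higher, Timp3 at 603.4 through 922.6 to 1445 CPM against 77.2 through 110.6 to 150.5. Higher in the retina were Mmp24 (-1.05 ± 0.04), Adamts5 (-1.20 ± 0.05) and Adamts4 (-1.36 ± 0.17), aggrecan-cutting enzymes in the case of the last pair, and the low-level Mmp9, Mmp13 and Mmp17.

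The most different genes of all were those of muscle and surface epithelium, tissue outside both labels. Among genes that reached 50 CPM in the higher tissue, the 10 most different on the posterior eye side were the sarcomere and muscle energy genes Myl1, Tnni2, Tnnt3, Myh2, Ckmt2, Myh3, Cox6a2 and Mb, together with Kera and the basal keratin Krt14. Myh2, a fast myosin, ran from 2688 (animal 13) through 9189 to 12470 CPM in the posterior eye against 0.50 through 0.89 to 157.2 (animal 2) in the retina. Myl1, a myosin light chain, ran from 797.1 through 2977 to 4435 CPM and from 0 to 40.8 (animal 2), with no count in 16 of 24 retina libraries. Its log2 difference was 15.0 ± 0.70 over all animals and 15.6 ± 0.50 without animal 2, so the value rested in part on that 1 retina library. All 11 tested skeletal muscle genes were at least 4-fold higher in the posterior eye, with a median of 10.2, or 10.3 without animal 2. All 8 genes of surface epithelium were higher by at least 9.21. Krt5, the partner of Krt14 in basal cells, differed by 10.9 ± 0.34, Dsp, desmoplakin, by 10.3 ± 0.23, and Krt12 by 11.4 ± 0.49. Their sum ran from 15040 to 51050 CPM in the posterior eye against 5.02 to 115.9 in the retina.

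Of 7 sebaceous and meibomian genes, 5 were higher in the posterior eye, 1 was not called and 1, Far2, had a call whose sign depended on the model. Awat2, a wax synthase of meibomian glands, was at 170.7 ± 411.8 CPM (SD, n = 24) against 0.08 ± 0.09, an SD above the mean, and Fa2h, a fatty acid hydroxylase that Schwann cells also use, was steadier at 13.4 ± 5.81 against 0.34 ± 0.19. Far2, which makes fatty alcohols for wax, ran from 0.65 through 2.91 to 373.9 (animal 6) CPM in the posterior eye against 7.63 through 10.3 to 13.9 in the retina. It was higher in the retina in 19 of 24 animals, and the fitted log2 difference of -1.13 ± 0.54 became 0.85 without the animal block, so no direction is given for it. All 9 adipocyte genes were higher in the posterior eye, with a median of 4.39. Adipoq, adiponectin, was at 17.7 ± 7.84 CPM against 0.08 ± 0.08, and Lpl, lipoprotein lipase, which muscle also makes, differed by 2.86 ± 0.07. Lep, leptin, had no count in any retina library and was at least 272-fold higher in the posterior eye than the floor of 3 counts over those libraries.

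Lens genes were the reverse case, tissue outside both labels whose RNA was found on the side of the retina. All 10 of the most different genes at 50 CPM or more on the retina side were lens genes: Mip, Cryaa, Lim2, Cryba1, Crybb2, Crybb3, Cryba2, Crybb1, Grifin and Crygs. All 20 tested lens genes were called higher in the retina, 19 at least 4-fold, with a median of -5.45. Only 2 of them had levels that did not overlap between tissues (background 24.6%). Cryaa, alpha-A crystallin, ran from 2042 (animal 14) through 13170 to 27500 (animal 4) CPM in the retina and from 15.5 (animal 18) through 139.6 to 1282 (animal 11) in the posterior eye. The sum of the list ran from 3614 to 65140 CPM between retina libraries, a ratio of 18.0, where the rod sum varied by a ratio of 1.21. Cryaa and several other crystallins are also known from the retina itself, so those genes are not exclusive to the lens, but Mip, the fibre cell water channel, at 6.88 to 289.5 CPM in the retina, and Lim2 at 9.95 to 288.1, are fibre cell genes. Of the 31 genes whose difference lay further towards the retina than that of every rod gene, 12 were in the lens list. Among the other 19, chosen here after their values were seen, were Foxe3 (-8.57), a factor of the lens epithelium, and the photoreceptor genes Grk1, a kinase that shuts off phototransduction (-4.46), Rp1l1 (-4.57) and Rbp3. The share of lens in the retina samples was not tested.

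The transcription factors of eye mesenchyme were almost entirely on the side of the posterior eye. Of 15, 14 were higher there, 12 at least 4-fold, with a median of 6.24. Foxc1, which acts in the mesenchyme around the optic cup, was at 36.8 through 51.1 to 78.3 CPM against 0.73 through 1.38 to 1.95. Tcf21 had no count in any retina library and was at least 331-fold above the floor. Heyl, a Notch target also known from retinal vessels, was not called, at 24.6 to 47.1 CPM in the posterior eye against 23.4 to 33.5 in the retina (adjusted p = 0.0501). It was called higher in the posterior eye with no animal block, in limma-voom, with a stricter filter and with the rod level as a covariate (adjusted p from 0.0255 to 0.0475), and turned to -0.016 with total count scaling.

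Of 20 glycolysis genes, 13 were higher in the retina (45.4% of all genes), 5 higher in the posterior eye (47.6%) and 2 not called. Their median was -0.99, against 0.04 over all genes. Hk2, the hexokinase of photoreceptors, was at 507 ± 52.4 CPM in the retina and 101 ± 51.1 in the posterior eye (log2 -2.48 ± 0.13). Aldoc, Pfkp and Pfkl differed by -3.11 ± 0.23, -2.21 ± 0.13 and -2.03 ± 0.10. The steps of the muscle isoforms stood on the other side: Pfkm, muscle phosphofructokinase, was at 315.9 through 889.5 to 1291 CPM in the posterior eye against 148.1 through 170.6 to 195.4 in the retina (2.32 ± 0.10), and Aldoa, the muscle aldolase, differed by 1.07 ± 0.08. Lactate dehydrogenase split by subunit, with Ldha higher in the retina (-0.60 ± 0.05) and Ldhb higher in the posterior eye (0.76 ± 0.05). The glucose transporter Slc2a1, which the RPE carries, was higher in the posterior eye by 0.68 ± 0.07, and the lactate transporter Slc16a1 higher in the retina by the measure -1.08 ± 0.09.

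Oxidative phosphorylation went the other way. Of 28 genes, 26 were higher in the posterior eye, none of them 4-fold, with a median of 0.86. Uqcrc1, a subunit of complex III, was at 501.5 through 754.0 to 946.7 CPM against 403.7 through 443.3 to 471.9, and Sdhd, of complex II, differed most, by 1.76 ± 0.05. Cox5b, of complex IV, differed by 1.41 ± 0.06 and Atp5f1b, the catalytic subunit of the ATP synthase, by 0.50 ± 0.06. Atp5pb, counted at 1.14 and 1.95 CPM on average, was the member on the other side. The sum of the list in the posterior eye was lowest in animal 13 (7950 CPM, median 12560), which also had the lowest muscle sum (9462 CPM, median 31490). The part of muscle in this difference was not tested. All 17 tested genes of cytosolic ribosomal proteins were higher in the posterior eye without overlap (background 27.5%). They differed by 0.71 to 1.78, with a median of 1.25. Rps2 was at 305.9 through 464.3 to 590.0 CPM against 126.8 through 156.0 to 185.2.

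Of 20 genes often used as references, 12 were higher in the posterior eye, 7 were higher in the retina and 1 was not called, where 93.0% of all genes were called, with a median of 0.26. B2m, which serves antigen presentation, differed by 3.42 ± 0.07, Actb by 1.82 ± 0.07, Tfrc by -1.50 ± 0.09 and Polr2a by -0.87 ± 0.04. Gapdh was at 2557 through 4265 to 6093 CPM in the posterior eye against 3428 through 3828 to 4288 in the retina (log2 0.13 with bounds of 0.00 and 0.26, adjusted p = 0.0576). It was called higher in the posterior eye with no animal block, in DESeq2, in limma-voom, with a stricter filter and with the rod level as a covariate (adjusted p from 0.0239 to 0.0382), and its sign turned to -0.002 with scaling by total count. The genes nearest to equal at 50 CPM or more, by absolute difference plus 2 SE, were Psmc1, a proteasome ATPase (147.2 to 181.7 and 158.1 to 175.5 CPM, bounds of -0.03 and 0.05), Cops4 (-0.04 and 0.05), the kinases Csnk2a1 (-0.05 and 0.05) and Gsk3b (-0.05 and 0.05), and Jagn1 (-0.05 and 0.05). The intervals hold for TMM scaling, since scaling by total count moved the median over all genes by -0.13 and these 5 genes with it.

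Receptors and antagonists of WNT signalling were mostly higher in the posterior eye, 13 of 15 (47.6% of all genes) against 2 (45.4%), with a median of 1.86. Fzd4, Lrp5 and Tspan12, the receptor complex for norrin that shapes retinal vessels, differed by 2.35 ± 0.07, 1.77 ± 0.09 and 2.20 ± 0.07. The ligand gene Ndp was below the count filter. The secreted antagonists Dkk2, Sfrp4 and Sfrp5 differed by 7.48 ± 0.18, 5.34 ± 0.15 and 5.35 ± 0.18, whereas Dkk3 and the receptor Fzd5 (-0.88 ± 0.09) were higher in the retina. Of 23 genes of TGF-beta and BMP signalling, 18 were higher in the posterior eye (47.6% of all genes). The other 5 were higher in the retina (45.4%), and the median was 1.77. The ligands divided: Tgfb3 was at 124 ± 29.7 CPM against 11.9 ± 1.03 (3.35 ± 0.08) and Tgfb1 differed by 2.24 ± 0.13, but Tgfb2 was higher in the retina, at 100.5 through 110.0 to 135.2 CPM against 59.6 through 79.0 to 109.9 (-0.54 ± 0.05). The receptor gene Tgfbr2 differed by 4.44 ± 0.07, and the target genes Id1, Id2 and Id3 by 3.16 ± 0.07, 1.94 ± 0.07 and 1.37 ± 0.07. The BMP receptor Bmpr1b was higher in the retina, by the measure -1.57 ± 0.09.

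Steroid receptors are of interest in a study of ovariectomy. Of 9 tested, 4 were higher in the posterior eye (47.6% of all genes), 4 higher in the retina (45.4%) and 1 was not called, a split near that of all genes. Esr1, oestrogen receptor alpha, ran from 3.22 through 5.195 to 6.72 CPM in the posterior eye against 1.17 through 1.77 to 2.90 in the retina, without overlap (log2 1.54 ± 0.09). Esr2, oestrogen receptor beta, ran from 0.13 through 0.81 to 1.73 in the posterior eye against 1.27 through 1.93 to 2.81 in the retina (-1.19 ± 0.16). The 2 receptors for oestrogen thus leaned to opposite tissues, and Esr2 overlapped. Gper1, the membrane oestrogen receptor, differed by 0.92 ± 0.14. Pgr, the progesterone receptor, was at 0.49 to 2.42 and 0.37 to 1.96 CPM and was not called (log2 -0.22, bounds of -0.54 and 0.09). With total count scaling it was called higher in the retina (-0.35, adjusted p = 0.0399 in edgeR). Of the orphan receptors, Esrrb and Esrrg were higher in the retina (-4.24 ± 0.47 and -2.10 ± 0.11) and Esrra higher in the posterior eye (1.13 ± 0.06).

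The tissue difference was then taken within each group of 6 animals. Called genes numbered 14773 in young sham (86.1%), 14508 in young OVX (84.6%), 14774 in aged sham (86.1%) and 14812 in aged OVX (86.4%). In all 4 groups and in the same direction, 13347 genes were called, 6933 of them higher in the posterior eye and 6414 higher in the retina. The list medians kept their sign in all 4 groups, except that of the steroid receptors (-0.03, 0.05, -0.37 and 0.04). Their size moved between groups in some lists, as for lymphocytes (5.07, 2.61, 3.09 and 2.98). The rod median was -3.48 in young sham, -4.52 in young OVX, -4.25 in aged sham and -4.85 in aged OVX, and the fibroblast median was 8.01, 8.48, 8.66 and 8.07. Tests within each group called opposite directions in at least 2 groups for 10 genes. None of these 10 genes passed the joint test of any difference among the 4 groups, given below. They included the clock genes Npas2 (0.27 in young sham and -0.36, -0.25 and -0.33 in the others) and Nr1d1 (0.29 in young sham and -0.44 in aged OVX), Mthfd1l, an enzyme of mitochondrial one-carbon metabolism (-0.53 in young sham and 0.26 in aged OVX), and Pdyn, prodynorphin (-1.48 in young sham and 0.56 in aged OVX).

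**Figure D2:**
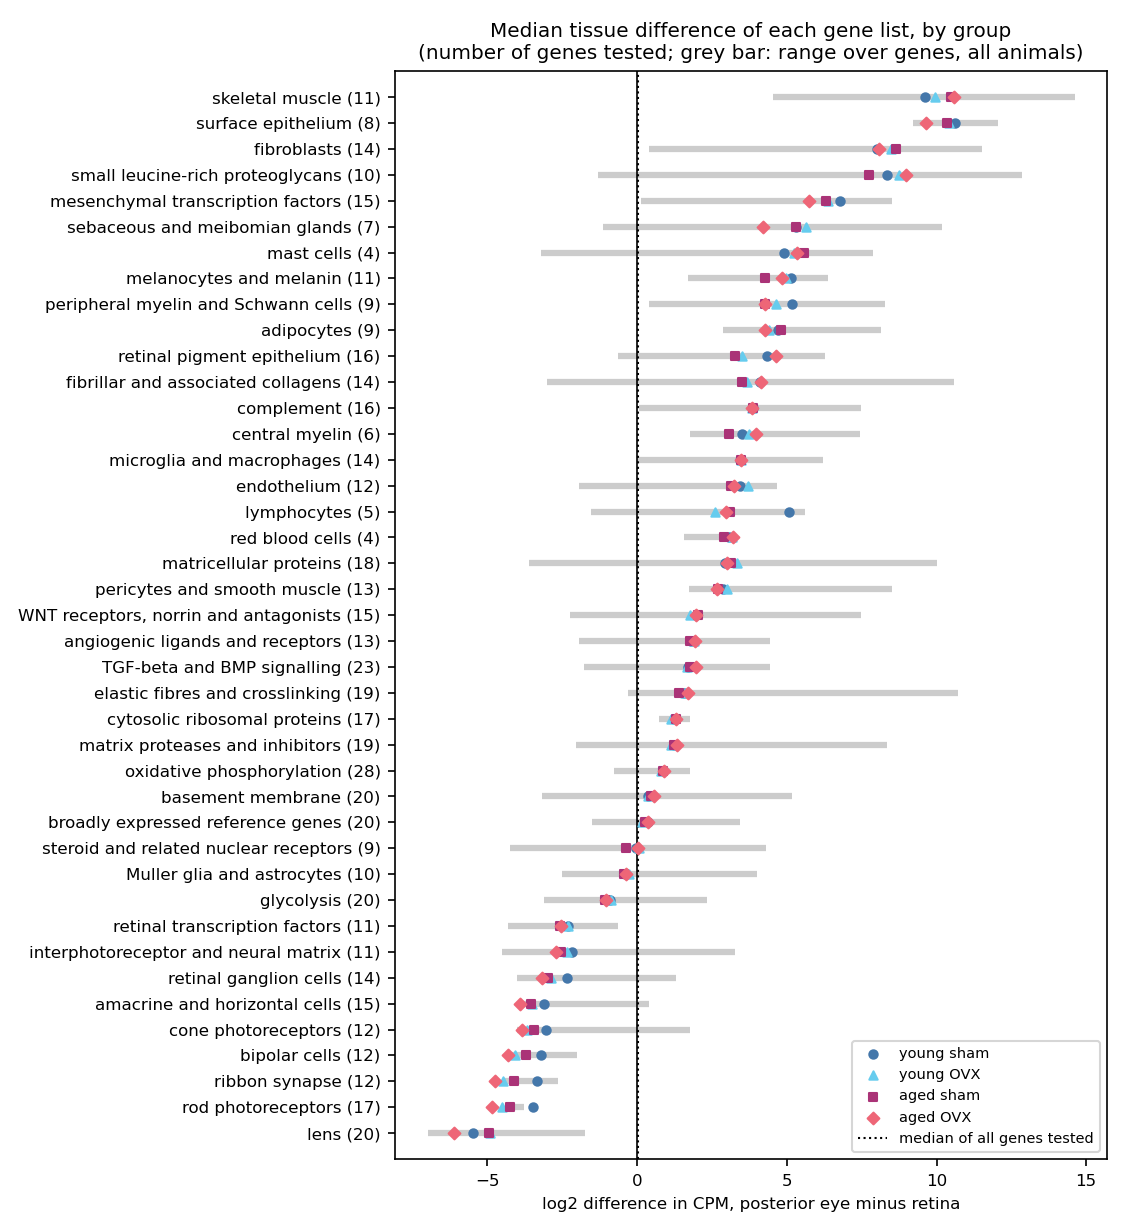
Median log2 difference (posterior eye minus retina, x axis) of each of 41 gene lists (y axis) in each of the 4 groups as coloured points, with a grey bar for the range over the genes of the list. Rows run from lens and rods on the left to surface epithelium and skeletal muscle on the right. The 4 points of a list lie on the same side of 0 in all rows but that of the steroid receptors. Within a row they can lie apart, as for lymphocytes, from 2.61 to 5.07.

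Whether the tissue difference itself depended on surgery or age was tested in the same fit, with the difference of differences as the measured quantity. For any difference among the 4 groups 0 genes were called (0%), while 1033 had an unadjusted p below 0.05 and DESeq2 called 26. For surgery 1 gene was called (0.00583%), while 897 had an unadjusted p below 0.05. This was Gnaq, the G-protein alpha subunit that couples receptors to phospholipase C. Its paired log2 differences ran from -0.20 to -0.03 in young sham, from 0.28 to 0.45 in young OVX, from -0.41 to 0.07 in aged sham and from -0.07 to 0.39 in aged OVX. The young groups did not overlap, and the mean difference was 0.40 ± 0.06 higher after OVX (adjusted p = 0.0115 in edgeR). In CPM, its posterior eye level was 26.1 ± 1.75 (SD, n = 6) in young sham, 32.1 ± 2.35 in young OVX, 24.7 ± 1.98 in aged sham and 29.4 ± 1.48 in aged OVX, and its retina level 28.5 ± 1.71, 24.8 ± 1.08, 26.6 ± 2.85 and 25.4 ± 2.01. The call was kept in 18 of 24 fits that left out 1 animal and was lost without animal 5, 6, 11, 15, 19 or 20 (adjusted p from 0.00207 to 0.196). It was also lost without animals 22 and 23 together (adjusted p = 0.0708 in edgeR). That setting was run because the posterior eye libraries of these animals (66 and 69) are numbered after their retina libraries (65 and 68), unlike those of the other animals.

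For age 1 gene was called (0.00583%), while 1253 had an unadjusted p below 0.05. Plxdc1, a transmembrane protein known from tumour endothelium, was higher in the posterior eye than in the retina in young animals and lower in aged ones. Its paired differences ran from 0.21 to 0.67 in young sham, -0.07 to 0.92 in young OVX, -0.68 to -0.09 in aged sham and -0.29 to 0.06 in aged OVX, a change with age of -0.69 ± 0.10 (adjusted p = 0.00598 in edgeR). It was called in 24 of 24 fits that left out 1 animal, though not without animals 22 and 23 together. For the interaction of surgery and age 0 genes were called (0%) in edgeR, where 739 had an unadjusted p below 0.05, and DESeq2 called 4. The genes with the smallest p were Fam83g (3.01 ± 0.56, adjusted p = 0.297) and the RPE genes Rgr (2.88 ± 0.62, adjusted p = 0.658) and Ttr (2.88 ± 0.62, adjusted p = 0.658), which both passed in DESeq2. Of the 16 RPE genes, 8 had an unadjusted p under 0.05 for this interaction, against 739 of all 17153, and 14 lay above 0, against 9530 of all. No set was tested, and genes of a list share animals and can move together, so counts of list members are not independent observations. Rod and ribosomal protein genes lay above 0 in 17 of 17 each and lens genes below 0 in 19 of 20. Beside this stood RPE signal in the retina libraries: Ttr was at 81.7 ± 31.7, 150 ± 38.7, 141 ± 87.1 and 48.2 ± 13.3 CPM (SD, n = 6) in the retina of the 4 groups in the order just given, and at 1965 ± 301, 1940 ± 525, 1730 ± 999 and 2222 ± 325 in the posterior eye. Its part in the interaction was not tested.

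**Figure D3:**
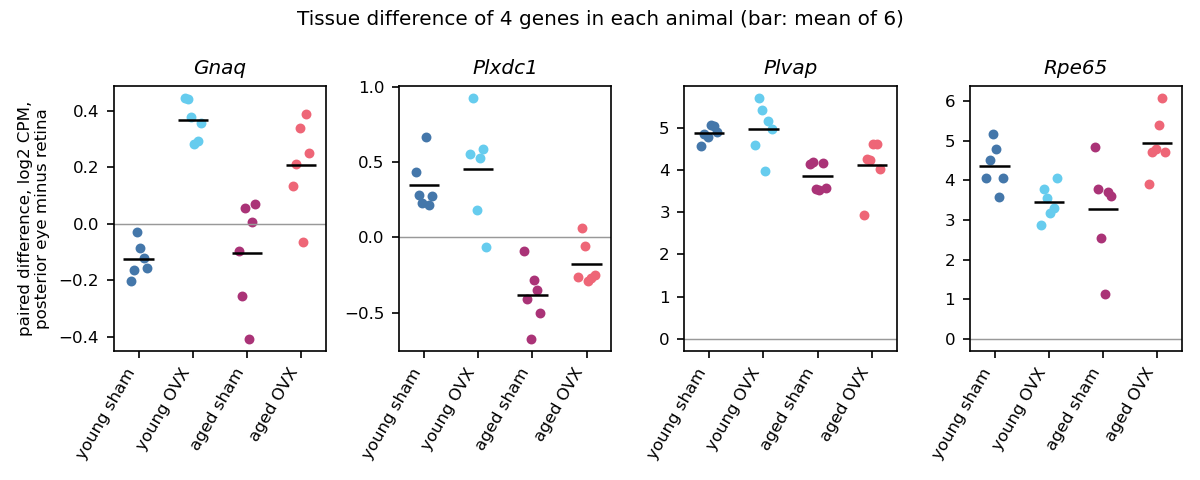
Paired difference (posterior eye minus retina, log2 CPM, y axis) of Gnaq, Plxdc1, Plvap and Rpe65 in each animal of the 4 groups (x axis), with a bar at the mean of 6. Gnaq lies higher after OVX and Plxdc1 lower in the aged groups, while Plvap (2.94 to 5.70) and Rpe65 (1.13 to 6.08) were not called.

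For age, 11 of 12 endothelial genes lay below 0, against 9310 of all 17153 genes, and 0 were called. Rod, ribbon synapse and bipolar genes lay below 0 in 17 of 17, 12 of 12 and 12 of 12, and ribosomal protein genes above 0 in 17 of 17, also with 0 called. Here too, members of a list are not independent observations. Plvap, at 204 ± 25.3, 230 ± 79.0, 162 ± 29.4 and 189 ± 54.1 CPM (SD, n = 6) in the posterior eye of the young sham and young OVX groups and then the aged sham and aged OVX groups, and in the same order at 6.88 ± 0.74, 6.84 ± 0.57, 11.1 ± 1.90 and 10.4 ± 1.46 in the retina, had an age difference of -0.94 ± 0.19 that did not pass (adjusted p = 0.192). Of the hormone receptors and collagens, Esr1 (0.22 ± 0.18) and Col1a1 (-0.47 ± 0.45) did not pass for surgery, each with an adjusted p of 1.

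Since both tissues came from the same animal, the level of a gene in one could be set against the other. After removal of group means, 51 of 11988 genes at a median of at least 2 CPM in each tissue had a positive correlation across the 24 animals that passed an adjusted p of 0.05 (0.425%, permutation test within groups, two-sided), and 5 a negative one (0.0417%). Several of the most correlated genes fell into separate levels, so values are given in place of a coefficient. Rnf40, a ubiquitin ligase of histone H2B, had 3 levels: 6 animals lay at 24.9 to 29.6 CPM in the retina and 11.9 to 17.6 in the posterior eye, 10 animals at 63.9 to 75.6 and 34.7 to 45.4, and 8 animals at 102.5 to 116.2 and 57.6 to 72.0. No animal changed level between its tissues. Of the 6 low animals, 2 were young sham, 2 young OVX and 2 aged sham. Repin1, a zinc finger protein, lay at 5.12 to 8.08 CPM in the retina and 1.70 to 4.07 in the posterior eye in 10 animals, at 21.7 to 27.9 and 6.32 to 13.2 in 7, and at 39.4 to 59.01 and 11.5 to 24.2 in 7.

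Tmem106c, a membrane protein, lay at 16.7 to 24.8 CPM in the retina and 16.5 to 22.4 in the posterior eye in 15 animals, at 57.7 to 62.6 and 30.5 to 43.7 in 6, and at 92.2 to 102.7 and 47.04 to 53.1 in 3. In the low animals its levels were alike in both tissues, and in the others the retina was higher. Rnf6, another ubiquitin ligase, separated 3 animals (32.5 to 46.3 CPM in the retina and 23.4 to 31.01 in the posterior eye) from 21 (69.5 to 97.4 and 43.5 to 71.2), and Rab14, a small GTPase of endosomes, separated 3 others at 53.6 to 61.6 and 53.8 to 62.7 CPM from 21 at 83.1 to 120.2 and 80.4 to 130.3. For Pym1 and Ascc1, 1 animal lay below the other 23 (8.93 CPM in the retina and 8.25 in the posterior eye for Pym1, 14.3 and 11.1 for Ascc1), and the upper levels of Tmem65 overlapped in the posterior eye. The 6 aged OVX animals held none of the low levels of Rnf40 and Repin1 and were all at the low level of Tmem106c, and whether levels differ between groups was not tested. Of the 51 genes, 43 were found in the RefSeq table, and 2 of these (4.65%) had another of the 51 within 20 genes, against 5.26% of other tested genes that had one of the 51 that near.

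**Figure D4:**
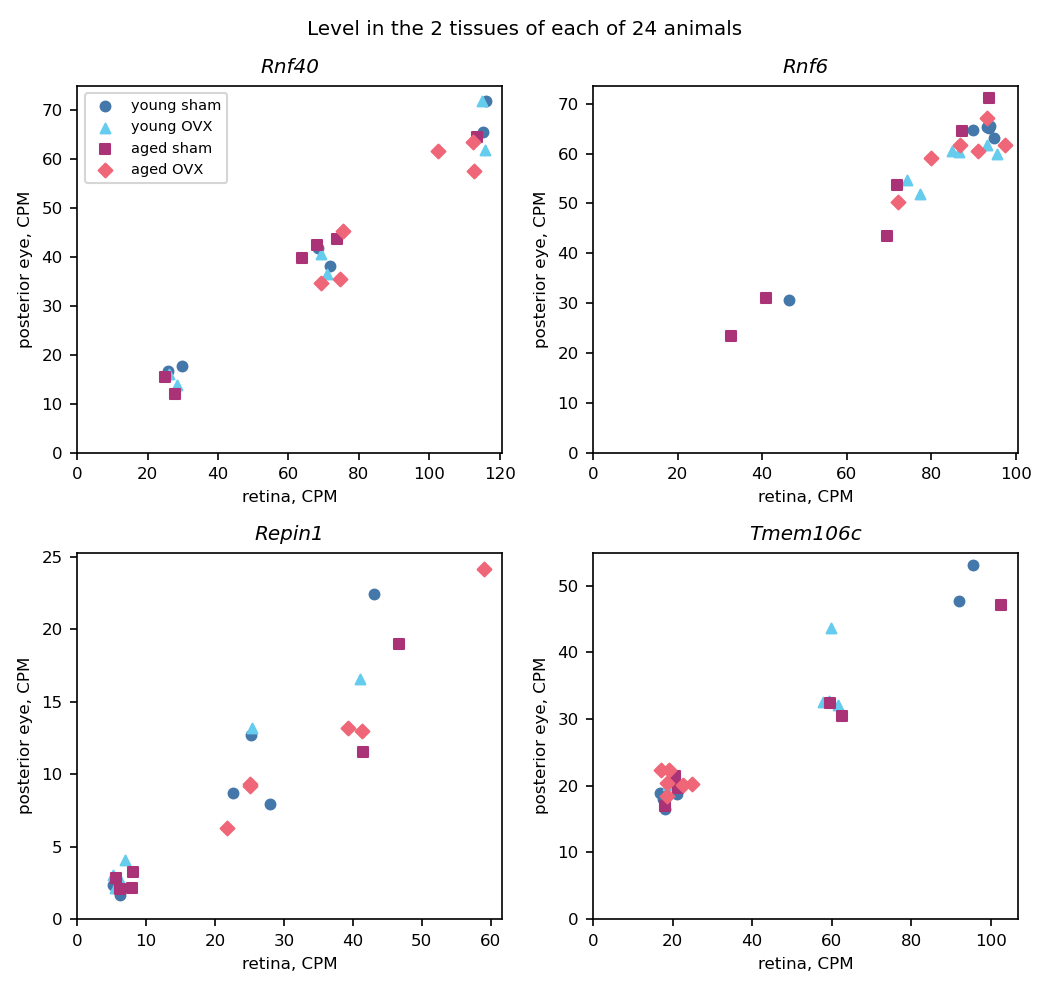
Level of Rnf40, Rnf6, Repin1 and Tmem106c in the retina (x axis, CPM) and in the posterior eye (y axis, CPM) of each of 24 animals, coloured by group. The points form separate clusters, 3 for Rnf40, with 6, 10 and 8 animals, and animals of different groups share a cluster.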

How the data were processed

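Total RNA of the posterior eye and retina was sequenced as paired 100-base reads, per the labels' protocols. The authors deposited whole-number read counts per gene, 1 table per tissue. The submitters' processing notes name STAR 2.7.3a, HTSeq, DESeq2 and the build Rnor_6.0, and the annotation, strand setting and handling of shared reads were not stated there. Reads of overlapping genes and of near-identical copies can therefore be mixed. For the posterior eye, 25 gene names had turned into dates, and these rows were not matched.

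Counts of both tissues were joined by symbol, filtered with edgeR's filterByExpr, scaled by TMM and tested with edgeR 4.0.16 (quasi-likelihood F test, animal and tissue as terms, Benjamini-Hochberg adjustment over all 17153 genes). Pairing comes from the labels, which give both tissues the same animal number, and the correlation of the tissues' deviations from group means ran from -0.08 to 0.31 over animals. SE is the absolute log2 difference divided by the square root of F. Group differences of the tissue difference were contrasts in the same kind of fit. The floor for genes with no count is 3 counts over the group, and it covers counting error only. On simulated counts the tissue test recovered 63 of 67 genes changed 1.5-fold and 67 of 67 changed 2-fold. The age contrast recovered 10 and 48 of 67. Among 16953 unchanged genes, the tissue test called 14 and the age contrast 2. The simulation gave all genes of a tissue the same spread and held no effect of the animal. Its rates do not cover genes that vary more. Genes higher in the retina had a median SD of log2 CPM of 1.01 in the posterior eye, against 0.30 over all genes. Alternatives were DESeq2 1.42.0, limma-voom 3.58.1, other scalings and filters, no animal block, and leaving out animals. Named genes were the 10 most different per direction at 50 CPM or more in the higher tissue, the leading and contrary members of each list, the genes nearest to equal, and those leading each group contrast. The comparison, the gene lists and the rules were chosen with earlier results of these data known.

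Some genes are not reported here.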

Additional observations from a re-analysis of the deposited data

Results flagged for a closer look

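In groups of 6 animals, 18 of 256 sets of paired differences held 1 animal far from the other 5 (gap to the nearest relative to the range, Dixon's 95% value), where chance gives about 1 in 20, or 12.8. The mean paired log2 difference of Müller glia and astrocyte genes was -1.294 in aged OVX animal 21, with the nearest animal at -0.282, and Gfap was at -5.262 in the same animal, with the nearest at 1.547. Skeletal muscle genes were at 5.389 in young sham animal 2 (nearest 9.984), whose retina library held muscle RNA.

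Gland genes were at 4.937 in young OVX animal 10 (nearest 2.428) and 7.826 in aged sham animal 16 (nearest 2.519). Red blood cell genes were at 3.627 in aged sham animal 14 (nearest 2.663) and 5.584 in aged OVX animal 23 (nearest 2.91). In aged OVX animal 22, microglia and macrophage genes were at 2.581 (nearest 3.258) and adipocyte genes at 2.884 (nearest 4.441). Lymphocyte genes were at 3.226 in aged sham animal 13 (nearest 1.98).

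Among structural genes, pericyte genes were at 3.159 (nearest 3.633) and matricellular genes at 2.912 (nearest 3.561) in young sham animal 1, and fibrillar collagens at 4.04 in young sham animal 3 (nearest 3.749). Elastic fibre genes were at 1.547 in aged sham animal 18 (nearest 2.002) and 2.674 in aged OVX animal 20 (nearest 2.192). Of single genes, Jagn1 was at -0.202 in young sham animal 3 (nearest -0.016), Plvap at 2.945 (nearest 4.034) and Psmc1 at -0.1 (nearest -0.013) in aged OVX animal 19. The tissue difference itself differed between groups for Gnaq, by 0.404 with surgery, and for Plxdc1, by -0.685 with age.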

How the results depend on the processing

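Against a 2-fold difference in place of 0, 8028 genes were called between tissues, 4776 higher in the posterior eye and 3252 higher in the retina. Leaving out 1 animal gave 15967 to 16070 genes, with 7999 to 8273 higher in the posterior eye and 7764 to 8071 in the retina, and 3245 to 3347 and 1728 to 1857 at 4-fold. With no replicate block for the animal, the tissue test called 15943 genes (8191 and 7752; 3301 and 1652 at 4-fold), any group difference was called for 4 genes and age for 6.

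Any difference among the groups was called for 26 genes in DESeq2, for 8 with the rod level as a covariate (chosen after seeing the data) and for 0 to 3 without 1 animal. Surgery was called for 4 genes in DESeq2, 0 with no filter, 0 without animals 22 and 23, and 0 to 2 without 1 animal. Age was called for 13 in DESeq2, 0 without animals 22 and 23, 4 with the rod covariate and 1 to 2 without 1 animal. Surgery by age was called for 4 in DESeq2. Spearman's rho gave 27 positive and 3 negative shared genes, and leaving out animals 22 and 23 gave 2 negative. The causes were not tested.

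Total count scaling moved the median of all genes by -0.133 and the share of calls higher in the posterior eye from 51.2% to 47.2%. It turned Cops4 (-0.127), Csnk2a1 (-0.133), Gsk3b (-0.131), Psmc1 (-0.127), Gapdh (-0.002), Heyl (-0.016) and Sparcl1 (-0.023). Upper quartile scaling turned Cops4 (-0.086), Csnk2a1 (-0.091), Gsk3b (-0.089) and Psmc1 (-0.085). No filter turned Cops4 (-0.012), Csnk2a1 (-0.017), Gsk3b (-0.015) and Psmc1 (-0.011), and leaving out animals 22 and 23 the same genes (-0.026, -0.022, -0.032 and -0.017). DESeq2 size factors turned Csnk2a1 (-0.004) and Gsk3b (-0.002), DESeq2 Csnk2a1 (-0.004) and voom Csnk2a1 (-0). A stricter filter turned Jagn1 (0.009) and the medians of the mast cell (-3.178) and steroid receptor (0.932) lists, with fewer genes tested. Far2 was at 0.85 with no block and 1.36 in voom.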
